A study of Mus musculus with 12 samples.

Results

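The genes described here are 9 regulators of sensory neuron development, chosen by name: the neurotrophin receptor genes *Ntrk2* and *Ntrk3*, the GDNF family receptor gene *Ret*, and the transcription factor genes *Neurog1*, *Pou4f1*, *Tlx3*, *Prdm12*, *Runx1* and *Runx3*. All 9 were listed in both count tables, which held 23420 genes each. The libraries came from the RNA of entire mouse embryos at embryonic day 12.5, from 2 lines, with 3 per group and 12 in all. In the *Carm1* line (strain C57BL/6), 3 embryos labelled *Carm1* null were compared with 3 wild-type embryos. The null allele, Carm1tm1Mtb, lacks an internal pair of exons of *Carm1*, which encodes an arginine methyltransferase, and its homozygotes are called Carm1 KO/KO below. In the *Pax3* line, 3 embryos labelled *Pax3* null, homozygous for the splotch allele Sp2H of the paired box transcription factor gene *Pax3*, were compared with 3 wild-type embryos of the same mixed background. Homozygotes are called Pax3 Sp2H/Sp2H. Both mutations are germline, so every tissue carried them, and each line came from matings between heterozygotes. The lines differed in strain and in the laboratory that kept the mice, so these cannot be told apart from any difference between the lines, and the wild types of the lines were not compared with each other.

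Sensory neurons of the dorsal root and cranial ganglia come from the neural crest and the placodes. Neurogenins start their differentiation, *Pou4f1* acts as the newborn neurons leave the cell cycle, and *Prdm12* and the Runx genes act in the choice between pain-sensing and proprioceptive or touch neurons. These classes carry different receptors: *Ntrk2* binds brain-derived neurotrophic factor, *Ntrk3* binds neurotrophin-3, and *Ret* signals for the GDNF family together with Gfra co-receptors.

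Library totals lay between 17183344 and 23518692 counts. Levels are given in CPM, the count of a gene relative to the total of its library as scaled by TMM, and every value is an average over all tissues of an embryo. The targeted genes were read first. *Carm1* was at 72.3 ± 3.55 CPM in its mutants against 144 ± 6.99 CPM in their wild types (SD, n = 3), and *Pax3* at 20.8 ± 2.40 CPM in its mutants against 28.1 ± 2.99 CPM. Counts are per gene, so reads on the parts that a mutant allele still transcribes are included. *Pax3* in the *Carm1* line was higher in the mutants, at 29.0 ± 1.52 against 22.3 ± 1.86 CPM. Counts on Y-linked genes marked 4 libraries (*Carm1* wild type 3, *Pax3* wild type 2 and 3, and Pax3 Sp2H/Sp2H 3), which held at least 4447 such counts against at most 23 in the others. The 9 genes had between 45 and 1586 counts per library, and all passed the filter on low counts in both lines.

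In Carm1 KO/KO embryos *Neurog1* was higher and *Prdm12* and *Runx1* were lower than in wild type, so that 3 of the 9 genes were differentially expressed. In Pax3 Sp2H/Sp2H embryos 5 of the 9 were differentially expressed and all 5 were lower: *Prdm12*, *Pou4f1*, *Ret*, *Runx3* and *Runx1*. *Prdm12* had the largest change of the 9 in the *Pax3* line, to 51.0% of the wild-type level (95% interval 43.6 to 59.6), and was at 80.2% in the *Carm1* line (70.2 to 91.5). *Ntrk2* and *Ntrk3* did not pass the test in either line. Genes were called at 0.05 by edgeR's quasi-likelihood test, adjusted by Benjamini-Hochberg over all genes of a line, and all adjusted *P* values below come from it unless another tool is named. Of all genes tested, 13.3% were called in the *Carm1* line (7.83% lower, 5.49% higher) and 24.5% in the *Pax3* line (10.5% lower, 14.0% higher). The groups did not overlap for 4 of the 9 genes in the *Carm1* line, where 30.0% of all genes tested had groups that did not overlap, and for 6 of the 9 in the *Pax3* line, where 39.6% did. The mutants were the lower group, without overlap, for 3 of the 9 genes in the *Carm1* line and 6 of the 9 in the *Pax3* line, against 15.7% and 18.9% of all genes tested. Among genes whose groups did not overlap, this was 3 of 4 and 6 of 6, against 52.5% and 47.8%. The median log2 fold change of the 9 genes was -0.03 in the *Carm1* line and -0.33 in the *Pax3* line, beside medians over all genes tested of 0.0014 and -0.0025. In the *Pax3* line 9 of 9 fold changes were below 0, and in the *Carm1* line 7 of 9.

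**Figure D1:**
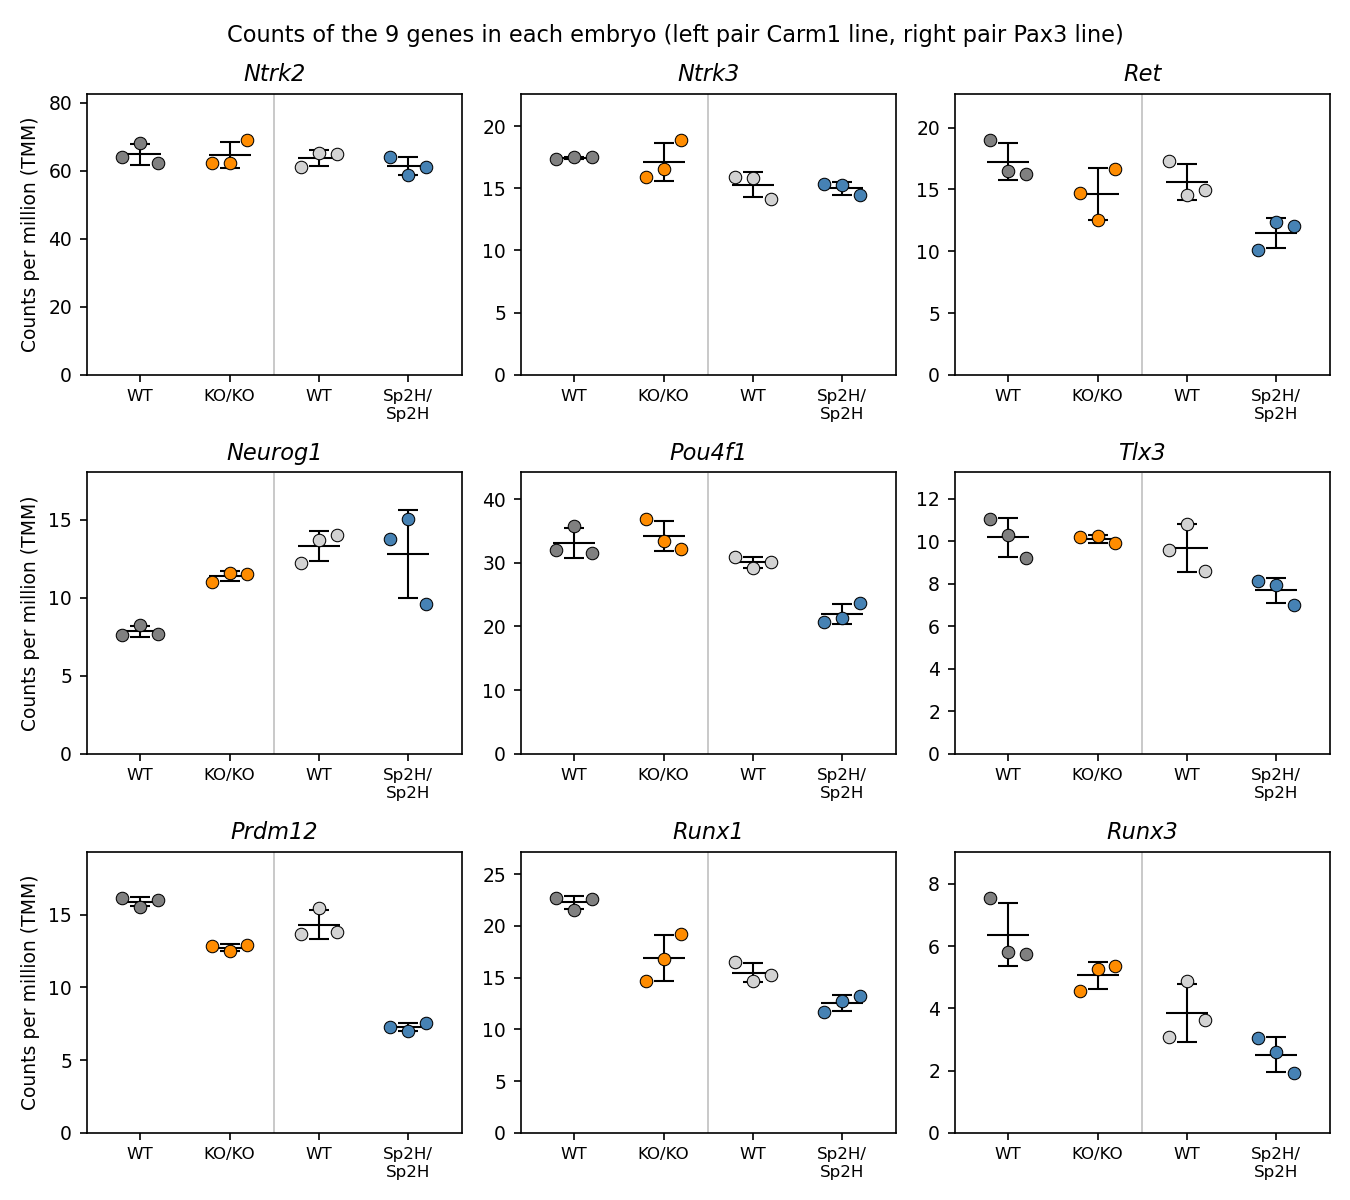
CPM of the 9 genes (y axis) in each library (points), with the mean and SD of each group of 3 embryos (black), in the *Carm1* line (grey and orange) and the *Pax3* line (light grey and blue). Every axis starts at 0. *Prdm12* lies at 7.01 to 7.55 CPM in Pax3 Sp2H/Sp2H embryos against 13.7 to 15.5 CPM in their wild types, and *Neurog1* at 11.0 to 11.6 CPM in Carm1 KO/KO embryos against 7.59 to 8.25 CPM.

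The receptor genes were described first. *Ntrk2* (GRCm38 chr13:58806569-59133970, plus strand), the receptor for brain-derived neurotrophic factor, had 62.3, 62.3 and 68.9 CPM in Carm1 KO/KO embryos, against 63.9, 68.2 and 62.2 CPM in wild types. Its values in the *Pax3* line were 64.1, 58.8 and 61.0 CPM in mutants and 61.0, 65.2 and 64.8 CPM in wild types. The groups overlapped in both lines, with log2 fold changes of -0.01 (95% interval -0.12 to 0.10, adjusted *P* = 0.95) and -0.06 (-0.18 to 0.07, adjusted *P* = 0.54).

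*Ntrk3* (chr7:78175959-78738012, minus strand), the neurotrophin-3 receptor of proprioceptive neurons, had 15.9, 16.6 and 18.9 CPM in Carm1 KO/KO embryos, against 17.4, 17.5 and 17.5 CPM in wild types. Its values in the *Pax3* line were 15.4, 15.3 and 14.4 CPM in mutants and 15.9, 15.9 and 14.1 CPM in wild types. Again the groups overlapped in both lines. The log2 fold changes were -0.03 (-0.21 to 0.15, adjusted *P* = 0.87) and -0.02 (-0.22 to 0.17, adjusted *P* = 0.88), so a change of the size seen for *Prdm12* in the *Pax3* line lay outside these intervals.

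*Ret* (chr6:118151745-118197718, minus strand) encodes the receptor tyrosine kinase of the GDNF family and is expressed in sensory, enteric, sympathetic and motor neurons and in the ureteric bud. In the *Pax3* line it had 10.1, 12.3 and 12.05 CPM in mutants and 17.3, 14.6 and 15.0 CPM in wild types. Every mutant was below every wild type, and *Ret* was lower in Pax3 Sp2H/Sp2H embryos by a log2 fold change of -0.44 (SE 0.11, adjusted *P* = 0.0032). Values in the *Carm1* line were 14.7, 12.5 and 16.7 CPM in mutants and 19.0, 16.5 and 16.2 CPM in wild types. These groups overlapped, since the highest mutant lay above the lower pair of wild types, and the log2 fold change of -0.23 did not pass the test (95% interval -0.44 to -0.03, adjusted *P* = 0.13). Without mutant replicate 2, the lowest of the mutants, it was -0.13 (adjusted *P* = 0.51).

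Since RNA came from whole embryos, fewer cells of a type and less RNA per cell cannot be told apart for any of these genes. Markers of the other cells that express *Ret* gave the following values in the *Pax3* line. Of 6 sympathetic and enteric markers, *Dbh*, which makes noradrenaline, was lower (log2 fold change -2.40, adjusted *P* = 1.4e-06), *Chrna3* was lower (-0.37, adjusted *P* = 0.022) and *Hand2* was higher (0.39, adjusted *P* = 1.6e-04). The summed level of these 6 was 78.9 to 81.0 CPM in mutants and 73.0 to 77.8 CPM in wild types. *Hand2* made up most of this sum, and the other 5, all with fold changes below 0, summed to 25.2 to 26.6 CPM in mutants and 34.4 CPM in each wild type. Of 6 motor neuron markers 2 were higher (*Lhx3* and *Lhx4*) and none lower, with sums of 25.6 to 26.9 and 19.5 to 21.5 CPM, and of 4 ureteric bud markers 1 was higher (*Wnt11*), with sums of 63.0 to 65.2 and 49.6 to 55.2 CPM. The same pair of motor neuron markers was higher in the *Carm1* line, and there, of the sympathetic and enteric and the ureteric bud markers 0 passed with edgeR, with DESeq2 or at an unadjusted *P* under 0.05 in edgeR. DESeq2 called fewer of the others, with 1 motor neuron marker higher in each line. In the *Pax3* line it called 1 sympathetic and enteric marker higher and 1 lower, and 1 ureteric bud marker higher. No marker of these lists was at 0 in all libraries of a line. Their part in the lower level of *Ret* was not tested.

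Among the transcription factors, *Neurog1* (chr13:56250478-56252163, minus strand), the neurogenin that starts differentiation of many sensory neurons, was the gene that was higher in the *Carm1* line. Carm1 KO/KO embryos had 11.0, 11.6 and 11.5 CPM and their wild types 7.59, 8.25 and 7.70 CPM. The groups were far apart relative to their spread, and the mutant level was 145% of wild type (95% interval 123 to 170), a log2 fold change of 0.53 (SE 0.11, adjusted *P* = 0.0014). The values of *Neurog1* in the *Pax3* line were 13.8, 15.0 and 9.63 CPM in mutants and 12.2, 13.7 and 14.0 CPM in wild types. The mutants spanned the wild types, with 1 mutant below and 1 above all of them, and the log2 fold change was -0.06 (-0.33 to 0.21, adjusted *P* = 0.78). Without mutant replicate 3, which also carried Y-linked counts, it was 0.11 (adjusted *P* = 0.57).

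Markers of neural progenitors, cells that also express *Neurog1* in the neural tube, were mostly higher in the *Carm1* line. Of 6 markers 5 were higher (*Hes5* by a log2 fold change of 0.55, adjusted *P* = 9.3e-07, then *Nes*, *Fabp7*, *Sox2* and *Pax6*) and 1 was lower (*Slc1a3*), with sums of 972 to 1016 CPM in mutants and 747 to 783 CPM in wild types. DESeq2 called 5 higher and 0 lower in this line. Of the 6, 3 were higher in the *Pax3* line (*Hes5*, *Sox2* and *Fabp7*), with sums of 835 to 916 and 762 to 818 CPM. None was at 0 in all libraries of a line. Their part in the level of *Neurog1* was not tested.

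*Pou4f1* (chr14:104461676-104467999, minus strand) encodes the POU homeodomain factor of early sensory neurons, also called Brn3a. Its values in the *Pax3* line were 20.7, 21.3 and 23.8 CPM in mutants and 30.9, 29.2 and 30.1 CPM in wild types. Every mutant lay well below every wild type, with a log2 fold change of -0.46 (SE 0.083, adjusted *P* = 2.0e-04) and a mutant level of 72.9% (95% interval 64.8 to 82.0). Those in the *Carm1* line were 36.8, 33.5 and 32.2 CPM in mutants and 32.0, 35.9 and 31.5 CPM in wild types. These groups overlapped, with a log2 fold change of 0.04 (-0.10 to 0.19, adjusted *P* = 0.75).

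*Tlx3* (chr11:33200752-33203589, minus strand), a homeobox gene of excitatory neurons in the dorsal spinal cord and of sensory neurons, had 8.14, 7.92 and 7.00 CPM in Pax3 Sp2H/Sp2H embryos, against 9.61, 10.8 and 8.59 CPM in wild types. The groups did not overlap, but the log2 fold change of -0.33 (SE 0.12) missed the threshold (adjusted *P* = 0.053). Without wild-type replicate 3, the lowest of the wild types, it was -0.41 and passed (adjusted *P* = 0.031), and when offsets for length and GC content were added it was -0.69 (adjusted *P* = 3.0e-04). Without any other 1 library it did not pass (-0.37 to -0.24, adjusted *P* from 0.080 to 0.21). The values of *Tlx3* in the *Carm1* line were 10.2, 10.3 and 9.90 CPM in mutants and 11.0, 10.3 and 9.21 CPM in wild types, which overlapped (log2 fold change -0.01, -0.24 to 0.22, adjusted *P* = 0.98).

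*Prdm12* (chr2:31640037-31655795, plus strand), a PR domain gene required for pain-sensing neurons, was lower in both lines. In the *Pax3* line it had 7.29, 7.01 and 7.55 CPM in mutants and 13.7, 15.5 and 13.8 CPM in wild types, a log2 fold change of -0.97 (SE 0.11, adjusted *P* = 2.9e-07). The *Carm1* line had 12.8, 12.5 and 12.9 CPM in mutants and 16.1, 15.6 and 16.0 CPM in wild types, a log2 fold change of -0.32 (SE 0.094, adjusted *P* = 0.019). Neither pair of groups overlapped, and the spread within each group of the *Carm1* line was small. The call in the *Carm1* line did not pass with DESeq2 (adjusted *P* = 0.077) or without any 1 of the mutants (adjusted *P* = 0.056, 0.074 and 0.052 without replicates 1, 2 and 3), where the log2 fold change stayed between -0.30 and -0.33. The exons of *Prdm12* share 200 bases with the antisense gene *Gm13425*, 8.1% of their length, and reads from that stretch cannot be told apart because the strand setting of the counting is not given in the sources used here.

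*Prdm12*, *Pou4f1* and *Tlx3* are also expressed in the developing spinal cord. Of 8 markers of dorsal spinal cord interneurons, such as *Lbx1* and *Lmx1b*, 0 passed in either line. DESeq2 also called 0, and at an unadjusted *P* under 0.05 edgeR gave 1 in the *Carm1* line and 0 in the *Pax3* line. Their summed level was 95.9 to 101 CPM in Pax3 Sp2H/Sp2H and 94.0 to 95.8 CPM in wild-type embryos, and 88.0 to 90.7 and 80.7 to 87.9 CPM in the *Carm1* line. This list is of dorsal cells only. Interneurons of the rest of the spinal cord had no list, so spinal cord sources of *Prdm12* outside the dorsal part were not read. Glia of the neural crest, which share ganglia with these neurons, moved in the *Pax3* line, where of 5 markers 3 were lower (*Sox10* by a log2 fold change of -0.89, adjusted *P* = 7.8e-08, then *Cdh19* and *Erbb3*), with sums of 51.0 to 53.3 CPM in mutants and 75.1 to 87.0 CPM in wild types. Of these 5, 0 passed in the *Carm1* line with edgeR, with DESeq2 or at an unadjusted *P* under 0.05 in edgeR, and sums were 87.1 to 89.7 and 83.8 to 99.9 CPM. No marker of either list was at 0 in all libraries of a line, and their part in the results for *Prdm12*, *Pou4f1* and *Tlx3* was not tested.

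The windows of 250 bases before the RefSeq start sites of *Prdm12*, *Pou4f1* and *Neurog1* (GRCm38.p6) are shown because these are the genes whose change differed between the lines, as described further on. They are written 5′ to 3′ on the strand of the gene, with capitals marking E-boxes (CANNTG, the kind of site that neurogenins bind) and the homeodomain palindrome TAATTA. The window of *Prdm12* lies at chr2:31639787-31640036, that of *Pou4f1* at chr14:104468000-104468249 and that of *Neurog1* at chr13:56252181-56252430.
Prdm12: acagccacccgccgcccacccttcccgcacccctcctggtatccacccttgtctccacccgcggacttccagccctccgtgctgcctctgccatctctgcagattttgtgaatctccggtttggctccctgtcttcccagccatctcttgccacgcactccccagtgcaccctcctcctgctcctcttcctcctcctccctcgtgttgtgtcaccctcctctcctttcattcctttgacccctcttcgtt
Pou4f1: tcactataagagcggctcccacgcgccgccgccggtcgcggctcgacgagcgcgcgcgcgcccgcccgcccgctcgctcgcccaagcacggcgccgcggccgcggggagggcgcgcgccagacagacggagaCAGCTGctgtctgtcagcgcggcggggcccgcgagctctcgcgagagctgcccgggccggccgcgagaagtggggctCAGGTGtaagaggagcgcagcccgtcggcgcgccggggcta
Neurog1: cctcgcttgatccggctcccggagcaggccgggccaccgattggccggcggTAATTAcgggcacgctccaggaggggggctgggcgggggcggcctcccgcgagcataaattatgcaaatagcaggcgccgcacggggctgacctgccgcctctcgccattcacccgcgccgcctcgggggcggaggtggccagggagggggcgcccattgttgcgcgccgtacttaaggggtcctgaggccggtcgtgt
The *Prdm12* window, with a GC content of 61.2%, held none of the motifs searched. The *Pou4f1* window (78.0% GC) held 2 E-boxes, and the *Neurog1* window (71.2% GC) held 1 TAATTA and no E-box. RefSeq windows were matched for 7 of the 9 genes, 9 windows in all, and not for *Ret* and *Ntrk3*. Searched on both strands, CANNTG was in 4 of the 9 windows and in 66.2% of 32851 windows of all genes, the Runx core TGTGGT in 2 of 9 and 14.0%, and TAATTA in 1 of 9 and 4.84%. None of these motifs contains another. A match is a description of the letters, and the median GC content of all windows was 52.4%.

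*Runx1* (chr16:92601466-92826149, minus strand) acts in pain-sensing neurons and is also the blood stem cell factor. It was lower in both lines. The *Carm1* line had 14.7, 16.7 and 19.2 CPM in mutants and 22.7, 21.5 and 22.6 CPM in wild types, a log2 fold change of -0.40 (SE 0.090, adjusted *P* = 0.0022). The *Pax3* line had 11.7, 12.7 and 13.2 CPM in mutants and 16.5, 14.7 and 15.2 CPM in wild types, a log2 fold change of -0.30 (SE 0.098, adjusted *P* = 0.025). Neither pair of groups overlapped, with mutant levels of 75.8% and 81.1% of wild type. The call in the *Pax3* line did not pass without wild-type replicate 1 (adjusted *P* = 0.10), mutant replicate 1 (0.13) or mutant replicate 2 (0.059), or with length and GC offsets, where the log2 fold change was -0.20 (adjusted *P* = 0.14). Its exons share 106 bases, 0.9% of their length, with the antisense gene *Gm26626*.

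*Runx3* (chr4:135120652-135177990, plus strand), which acts in proprioceptive neurons and in cartilage, had the lowest counts of the 9 genes. In the *Pax3* line it had 3.04, 2.60 and 1.91 CPM in mutants, from 68, 57 and 45 counts, and 3.07, 4.86 and 3.61 CPM in wild types. The highest mutant lay just below the lowest wild type, and the log2 fold change was -0.60 (SE 0.21, adjusted *P* = 0.037). This call did not pass with DESeq2 (adjusted *P* = 0.072), nor without wild-type replicate 2 (0.19) or 3 (0.055) or mutant replicate 2 (0.073) or 3 (0.19). The values of *Runx3* in the *Carm1* line were 4.55, 5.27 and 5.36 CPM in mutants and 7.53, 5.80 and 5.75 CPM in wild types. These groups did not overlap, but the log2 fold change of -0.32 (95% interval -0.63 to -0.01) did not pass (adjusted *P* = 0.18). Without wild-type replicate 1, the highest of the wild types, it was -0.19 (adjusted *P* = 0.50).

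Blood and cartilage markers were read beside the Runx genes. Of 9 blood markers 3 were lower in the *Carm1* line (*Pf4* by a log2 fold change of -0.80, adjusted *P* = 2.4e-07, *Gfi1b* and *Gata1*) and 3 were higher (*Cd34*, *Gata2* and *Kit*), with sums of 221 to 231 CPM in mutants and 215 to 229 CPM in wild types. The higher ones were at means of 66.6 against 50.5 (*Cd34*), 50.7 against 44.6 (*Kit*) and 28.7 against 23.8 CPM (*Gata2*), and *Cd34* and *Kit* were the most abundant of the 9. The lower ones were at 15.6 against 27.1 (*Pf4*), 13.4 against 20.7 (*Gata1*) and 5.77 against 9.59 CPM (*Gfi1b*). These moves offset each other, so the sum does not show that blood was unchanged. DESeq2 called 3 lower and 2 higher in this line. Of the same 9 markers 1 was lower in the *Pax3* line (*Gfi1b*) and 2 were higher (*Gata2* and *Pf4*), with sums of 205 to 221 and 203 to 216 CPM. Of 6 cartilage markers 2 were lower in the *Carm1* line (*Acan* and *Col9a1*), with sums of 892 to 912 and 861 to 1051 CPM, and 1 was higher in the *Pax3* line (*Col9a1*), with sums of 904 to 1026 and 734 to 909 CPM. None was at 0 in all libraries of a line. Their part in the levels of *Runx1* and *Runx3* was not tested. Pan-neuronal genes also moved, with 3 of 7 lower in each line, *Dcx* and *Stmn2* in both. Their sums were 1611 to 1659 against 1759.5 to 1879 CPM in the *Carm1* line and 1582 to 1718 against 1744 to 1917 CPM in the *Pax3* line, and their part in any of these results was not tested.

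**Figure D2:**
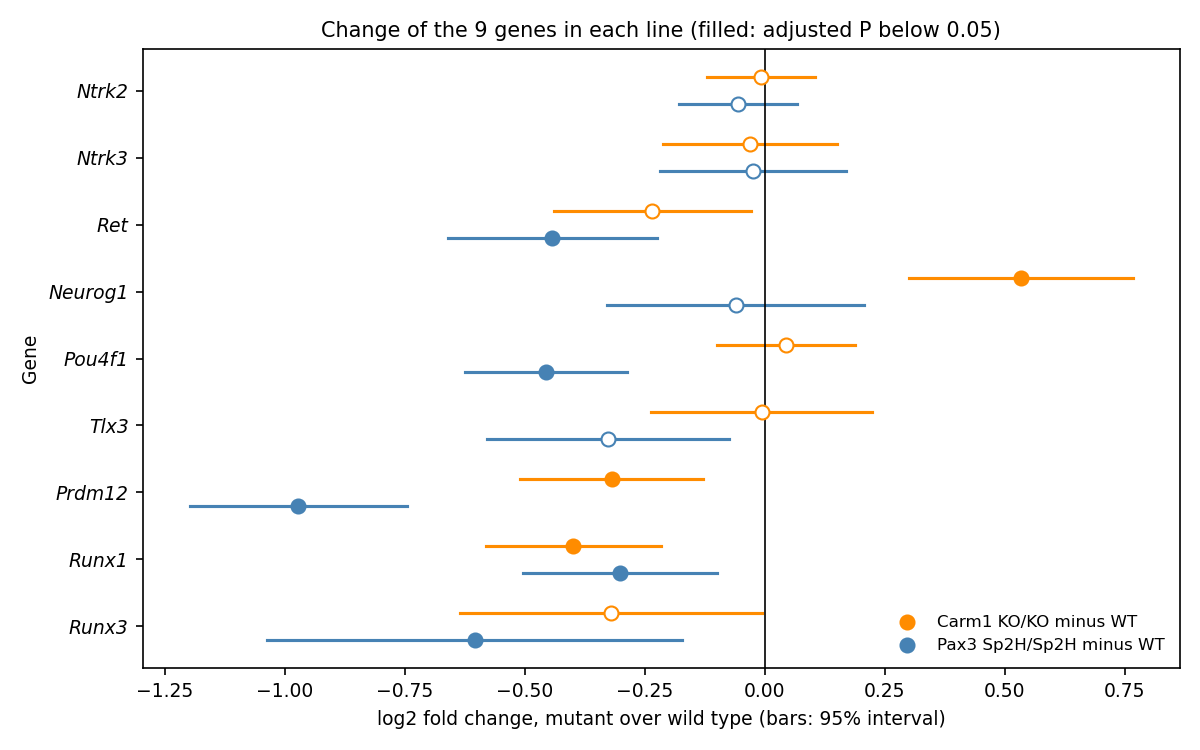
Log2 fold change of each gene, mutant over wild type (x axis), with 95% intervals, in the *Carm1* line (orange) and the *Pax3* line (blue). Filled points passed the adjusted threshold: 3 of 9 in the *Carm1* line and 5 of 9 in the *Pax3* line, with *Neurog1* the one filled point above 0, at 0.53.

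Whether a gene responded differently in the lines was tested by an interaction term over 12 libraries, as the change in the *Pax3* line minus that in the *Carm1* line. The difference passed for 3 of the 9 genes, in each with the *Pax3* change the lower one, where 19.1% of 16292 genes passed in either direction and 8.65% in this one. It was -0.66 for *Prdm12* (SE 0.14, adjusted *P* = 8.0e-04), -0.60 for *Neurog1* (SE 0.17, adjusted *P* = 0.012) and -0.51 for *Pou4f1* (SE 0.11, adjusted *P* = 0.0013). *Prdm12* was thus lower in both lines and lower by more in the *Pax3* line. Without mutant replicate 3 of the *Pax3* line the difference for *Neurog1* was -0.43 and did not pass (adjusted *P* = 0.060). For the other 6 genes the difference did not pass, and its 95% interval was -0.53 to 0.09 for *Ret*, -0.66 to -0.0016 for *Tlx3*, -0.82 to 0.24 for *Runx3*, -0.19 to 0.37 for *Runx1*, -0.27 to 0.26 for *Ntrk3* and -0.23 to 0.11 for *Ntrk2*. With length and GC offsets the difference for *Tlx3* was -0.66 and passed (adjusted *P* = 0.0037). *Prdm12* and *Runx1* were called in both lines and lower in both, which is 2 of the 9 genes. Under 4 of 15 alternatives each, the *Carm1* call of *Prdm12* and the *Pax3* call of *Runx1* did not pass. Over all genes tested in both lines 3.73% were called in both and 1.21% were lower in both.

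Levels of different genes were compared as CPM per kilobase of annotated exon. In *Carm1* wild-type embryos *Pou4f1* was at 7.09 ± 0.512, *Tlx3* at 6.65 ± 0.597 and *Prdm12* at 6.44 ± 0.123 on this scale (SD, n = 3). Neighbours among these overlapped in their range over embryos. The rest followed without overlap between neighbours, from *Neurog1* at 4.66 ± 0.211 and *Ntrk2* at 3.36 ± 0.159 through *Ret*, *Runx1* and *Runx3* to *Ntrk3* at 0.579 ± 0.00239. In Carm1 KO/KO embryos *Neurog1*, at 6.76 ± 0.186, stood second behind *Pou4f1* and overlapped with *Tlx3*. In *Pax3* wild-type embryos *Neurog1* stood first at 7.90 ± 0.560, and *Pou4f1*, *Tlx3* and *Prdm12* followed, again with overlap between neighbours. In Pax3 Sp2H/Sp2H embryos *Prdm12*, at 2.95 ± 0.109, overlapped with *Ntrk2* at 3.18 ± 0.137, *Tlx3* with *Pou4f1*, and *Runx3* with *Ntrk3*. The order depended on the length used: per kilobase of the longest transcript, which for *Ntrk2* has 8744 bases against 19292 bases of exon in all, *Ntrk2* was at 7.41 ± 0.352 in *Carm1* wild types and stood second. On that scale *Runx1* stood above *Ret* in *Carm1* wild types (3.80 ± 0.106 against 3.16 ± 0.277). In both mutants *Runx1* was above *Ret* by less than their SD. The means were 2.88 ± 0.385 against 2.68 ± 0.384 in Carm1 KO/KO embryos and 2.14 ± 0.130 against 2.11 ± 0.223 in Pax3 Sp2H/Sp2H embryos. In the latter *Ntrk3*, at 0.762 ± 0.0263, was above *Runx3*, at 0.647 ± 0.147, by less than the SD of *Runx3*.

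**Figure D3:**
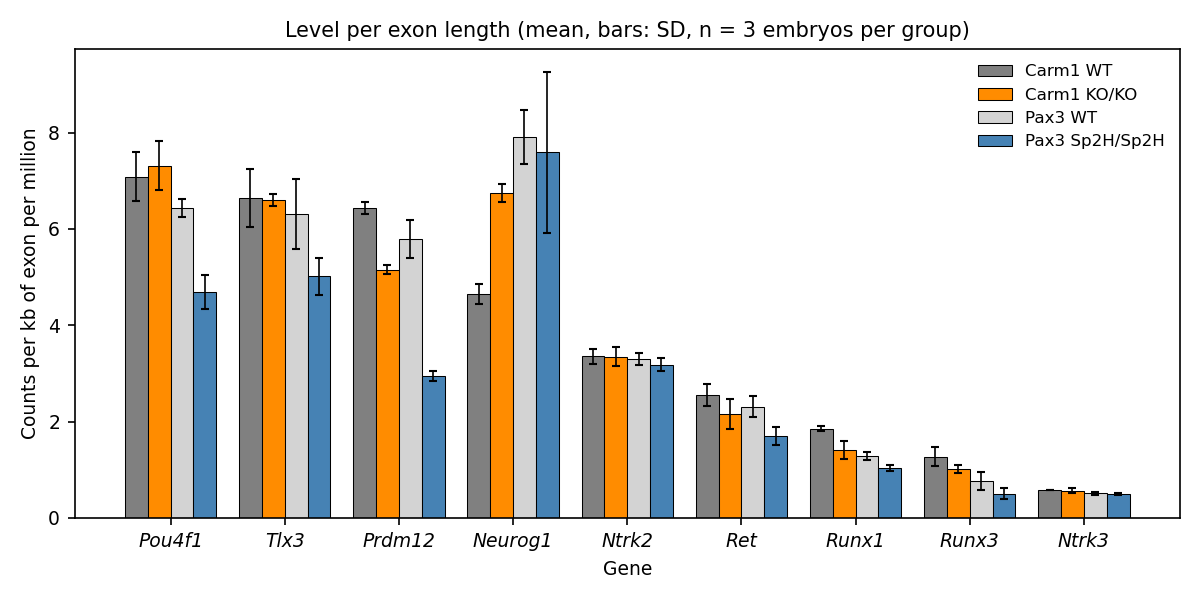
Mean CPM per kilobase of exon (bars, y axis from 0) of the 9 genes in the 4 groups, with SD over 3 embryos. Genes are ordered by their level in *Carm1* wild types, from *Pou4f1* at 7.09 to *Ntrk3* at 0.579.

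The other genes of the pathway were read from lists of ligands, receptors, transcription factors and products of sensory neurons. Of 7 neurotrophin and GDNF family ligand genes, among them *Bdnf*, *Ntf3* and *Gdnf*, 0 passed in either line with edgeR. DESeq2 also called 0, and at an unadjusted *P* under 0.05 edgeR gave 1 in the *Carm1* line and 2 in the *Pax3* line, all of them higher. Their median log2 fold change was 0.22 in the *Carm1* line and -0.15 in the *Pax3* line, and their fold changes ranged from -0.15 to 0.44 and from -0.76 to 0.38.

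Of 6 other receptor genes 1 was lower in the *Carm1* line, 3 were lower in the *Pax3* line and none was higher, with median log2 fold changes of -0.04 and -0.23. The co-receptor genes *Gfra3* (-0.80, adjusted *P* = 7.0e-04) and *Gfra1* (-0.32, adjusted *P* = 0.0024) and the shared neurotrophin receptor gene *Ngfr* (-0.23, adjusted *P* = 0.0045) were the 3 lower in the *Pax3* line. The co-receptor gene *Gfra2* was lower in the *Carm1* line (-0.32, adjusted *P* = 0.025). This call did not pass with DESeq2 (adjusted *P* = 0.095) or with a term for Y-linked counts. It also failed without any 1 of 5 libraries (adjusted *P* from 0.051 to 0.090), all but wild-type replicate 1.

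Of 17 other transcription factor genes 1 was called in the *Carm1* line, the neurogenic factor gene *Neurod4*, which was higher (log2 fold change 0.71, adjusted *P* = 4.0e-04). In the *Pax3* line 8 were called, 6 lower and 2 higher, with a median over the list of -0.23 beside -0.04 in the *Carm1* line. *Prrxl1*, a homeobox gene of sensory neurons and their spinal targets, was lower by a log2 fold change of -1.12 (adjusted *P* = 0.0028), *Neurod1*, which acts after the neurogenins, by -0.59 (adjusted *P* = 1.1e-04), and *Isl1*, which acts beside *Pou4f1*, by -0.42 (adjusted *P* = 2.3e-04). *Neurod4* (-0.47), *Pou4f2* (-0.48) and *Etv1* (-0.34) were lower and *Insm1* (0.35) and *Neurog2* (0.25) higher, and these 5 calls were less stable. *Pou4f2* (adjusted *P* = 0.048) did not pass under 8 of 15 alternatives, with adjusted *P* up to 0.23, among them leaving out wild-type replicate 1 or 3 or mutant replicate 1 or 2, and *Neurog2* did not pass without wild-type replicate 1 (0.16), mutant replicate 1 (0.16) or mutant replicate 3 (0.062). *Neurod4* (0.071) and *Etv1* (0.051) did not pass without mutant replicate 3. With length and GC offsets *Insm1* (0.064), *Neurod4* (0.067), *Etv1* (0.17) and *Neurog2* (0.32) did not pass.

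Of 10 genes for products of sensory neurons 9 could be tested, *Trpv1* being too low. There were 5 lower in the *Carm1* line, with a median of -0.35 over the 9: *Pirt* (-0.76, adjusted *P* = 3.2e-04), *Avil* (-0.76, adjusted *P* = 0.0029), *P2rx3* (-0.40, adjusted *P* = 0.0060), *Prph* (-0.35, adjusted *P* = 0.0012) and *Scn9a* (-0.27, adjusted *P* = 0.017). There were 4 lower in the *Pax3* line, with a median of -0.20: the sodium channel gene of pain-sensing neurons *Scn10a* (-2.05, adjusted *P* = 1.0e-05), *Pirt* (-1.44, adjusted *P* = 2.3e-07), *Scn9a* (-0.75, adjusted *P* = 9.2e-06) and the ATP receptor gene *P2rx3* (-0.66, adjusted *P* = 7.0e-05). None was higher in either line. The *Carm1* call of *P2rx3* did not pass without wild-type replicate 2 or mutant replicate 2 (adjusted *P* = 0.084 and 0.082), and that of *Scn9a* did not pass without wild-type replicate 2 or mutant replicate 1 (0.14 and 0.13), with DESeq2 (0.067) or in a joint fit of 12 libraries (0.076).

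**Figure D4:**
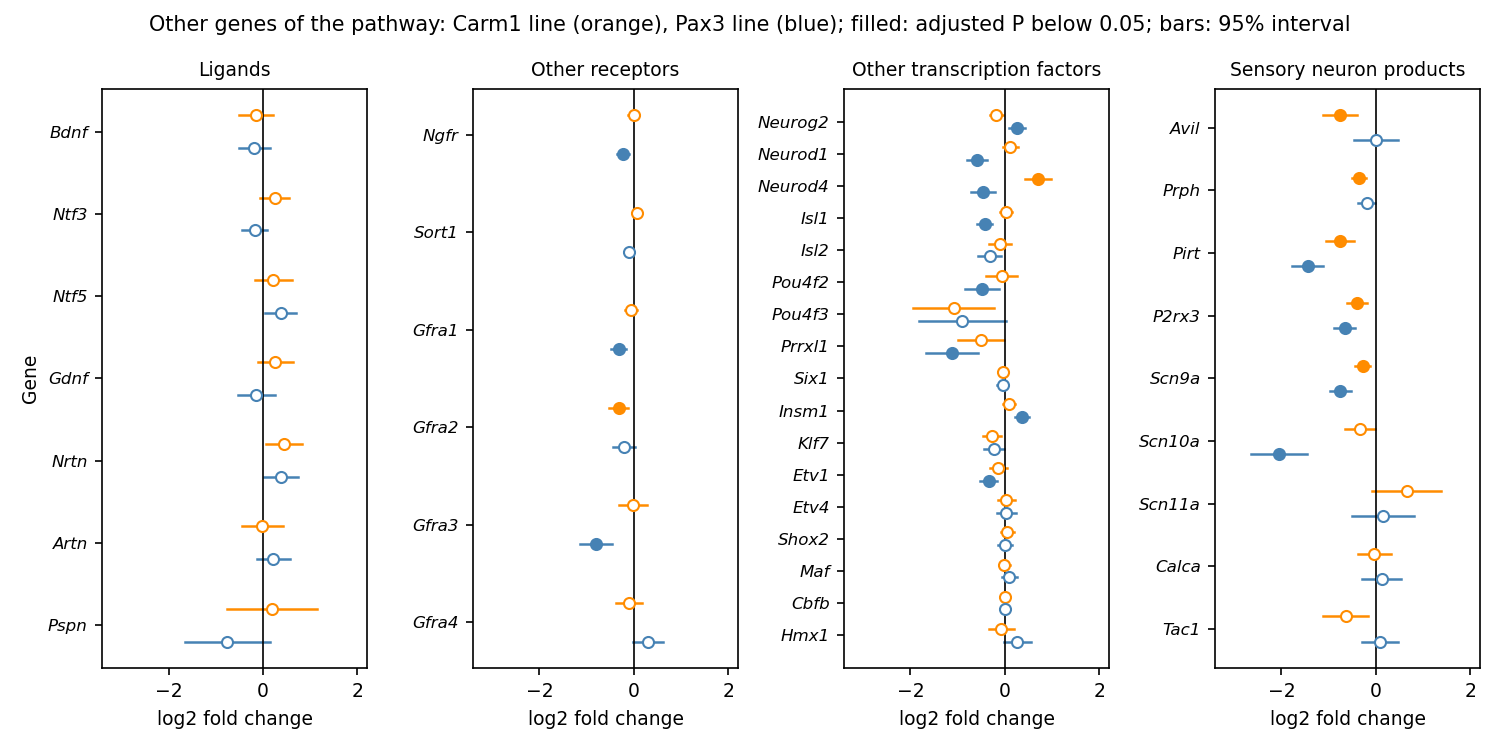
Log2 fold changes, mutant over wild type (x axis), with 95% intervals of the other genes of the pathway, in 4 panels by role, for the *Carm1* line (orange) and the *Pax3* line (blue). Filled points passed the adjusted threshold. *Pirt* was lower in both lines (-0.76 and -1.44), and none of the 7 ligand genes has a filled point.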

How the data were processed

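Polyadenylated RNA of whole embryos at embryonic day 12.5 was sequenced in pairs of reads, which the authors placed on mm10 by STAR and assigned to exons by featureCounts. The deposited tables hold raw counts per gene and library, as whole numbers that were neither normalized nor pooled. Tool versions, the setting for strand and how multimapped reads were handled are not given in the sources used here.

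Groups and replicate numbers came from the sample labels. Each line had its own fit, made in R 4.3.3 by edgeR's quasi-likelihood test (version 4.0.16), with robust dispersions, TMM factors, filterByExpr and Benjamini-Hochberg adjustment over all genes tested (15811 in the *Carm1* line, 15724 in the *Pax3* line), with a threshold of 0.05. The difference between the lines was an interaction over 12 libraries. These samples are separate embryos, and the labels do not give their litters. Alternatives were DESeq2 (version 1.42.0), the tool of the study, RLE and upper-quartile factors, no filter, at least 10 counts in each library, a joint fit of 12 libraries, the replicate number as a block, a term for Y-linked counts (at least 100), offsets for transcript length and GC content (splines with 5 degrees of freedom) and leaving out each library. The fits were tested on simulated data.

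The 9 genes, the other gene and marker lists and the tests were chosen with earlier results of these data known. The genes named are the 9, the targeted genes, list members past the threshold and, for each of the 9 called in the *Pax3* line, the 2 genes nearest to it in log2 CPM over 12 libraries. A few other list members are named as examples of their list or because they were not tested, as are antisense genes that overlap some of the 9. Coordinates and exon lengths are from GENCODE on GRCm38, the same build as mm10, and start sites from RefSeq. Lists were written by hand for ligands, receptors, transcription factors and products of sensory neurons and for markers of dorsal spinal cord, motor, sympathetic and enteric neurons, ureteric bud, neural crest glia, neural progenitors, pan-neuronal genes, blood and cartilage. The blood marker *Spi1* was not analysed here, and some genes of these lists are not reported here and were left out of the counts.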

Additional observations from a re-analysis of the deposited data

Results flagged for a closer look

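The genes below are given because their change in the *Pax3* line differed from that in the *Carm1* line in the interaction test (edgeR's quasi-likelihood test, Benjamini-Hochberg adjustment over 16292 genes, 3 embryos per group). Values are the log2 change in the *Pax3* line minus that in the *Carm1* line. Of all genes tested 19.1% differed. Of the 9 genes, these were *Prdm12* (-0.66, adjusted *P* = 8.0e-04), *Neurog1* (-0.60, adjusted *P* = 0.012) and *Pou4f1* (-0.51, adjusted *P* = 0.0013).

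Among the other receptor genes 3 of 6 differed: *Gfra3* (-0.79, adjusted *P* = 0.0090), *Gfra1* (-0.27, adjusted *P* = 0.029) and *Ngfr* (-0.24, adjusted *P* = 0.034). Among the other transcription factor genes 4 of 17 differed, a share near that of all genes: *Neurod4* (-1.19, adjusted *P* = 1.8e-05), *Neurod1* (-0.72, adjusted *P* = 3.2e-04), *Isl1* (-0.46, adjusted *P* = 6.9e-04) and, in the other direction, *Neurog2* (0.42, adjusted *P* = 0.0047). *Neurod4* was higher in Carm1 KO/KO embryos, at 8.41 ± 0.219 against 5.12 ± 0.431 CPM, and lower in Pax3 Sp2H/Sp2H embryos, at 10.4 ± 1.93 against 14.4 ± 1.60 CPM (SD, n = 3). Among the products of sensory neurons 3 of 9 differed: *Scn10a* (-1.72, adjusted *P* = 3.2e-04), *Pirt* (-0.69, adjusted *P* = 0.022) and *Scn9a* (-0.49, adjusted *P* = 0.013). The lines differ in strain and laboratory, which cannot be told apart from the mutated gene here.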

How the results depend on the processing

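The calls of *Neurog1* and *Runx1* in the *Carm1* line, of *Ret*, *Pou4f1* and *Prdm12* in the *Pax3* line, and of the difference between lines for *Prdm12* and *Pou4f1* held under every alternative run. Of 450 values of the 9 genes under alternatives, 406 kept direction and side of the threshold, 14 lost the call, 7 gained it and 23 changed sign, none of the last a called value. With length and GC offsets *Ntrk2* was 0.037 in the *Carm1* line, 0.050 in the *Pax3* line and 0.0082 for the difference, and *Ntrk3* was 0.020, 0.083 and 0.063. Leaving out 1 library gave ranges that cross 0 in the *Carm1* line for *Ntrk2* (-0.056 to 0.035), *Ntrk3* (-0.10 to 0.020), *Pou4f1* (-0.013 to 0.11) and *Tlx3* (-0.073 to 0.049), in the *Pax3* line for *Ntrk3* (-0.078 to 0.0070) and *Neurog1* (-0.19 to 0.11), and for the difference for *Ntrk3* (-0.063 to 0.068) and *Runx1* (-0.0096 to 0.19). The cause was not tested.

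The number of the 9 genes called was 3 to 5 in the *Pax3* line when 1 library was left out, with 3 without mutant replicate 2, which lost *Runx1* and *Runx3*, and 2 to 3 in the *Carm1* line. Over all genes the *Carm1* line gave 1224 to 2290 calls and the *Pax3* line 2454 to 4103 when 1 library was left out, beside 2106 and 3851. The count rose only without wild-type replicate 1 in the *Carm1* line and wild-type replicate 2 in the *Pax3* line, and it fell by over 1.5 times without *Carm1* wild-type replicate 2 (1349) or mutant replicate 1 (1224) or 2 (1381), and without *Pax3* mutant replicate 1 (2565) or 3 (2454). The cause of these moves was not tested. With length and GC offsets the *Carm1* line gave 3208 calls, 1913 higher and 1295 lower, or 59.63% higher beside 41.22% without offsets. The *Pax3* line gave 2588 calls with these offsets, 1440 higher and 1148 lower, beside 3851 without them. Of the 2588 genes, 1896 were also called without offsets.

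Correlations of deviations from the group means were -0.0411, 0.000822 and -0.042 for same-numbered mutant and wild-type libraries of the *Carm1* line. Different-numbered pairs there gave -0.0101 to 0.0497. In the *Pax3* line same-numbered pairs gave 0.133, -0.0916 and 0.227, and different-numbered pairs -0.325 to 0.236. With 3 libraries per group these deviations depend on each other, so the values cannot decide whether replicate numbers pair the samples. With the replicate number as a block 3 of the 9 genes were called in the *Carm1* line and 6 in the *Pax3* line, where *Tlx3* was added (-0.33, adjusted *P* = 0.045). *Tlx3* also passed with RLE factors (0.0498), one fit of 12 libraries (0.027) and a term for Y-linked counts (0.043).

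Low counts limit *Runx3* most, and the *P* values of *Ntrk2* and *Ntrk3* do not show that their levels were equal.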

Other observations

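For each of the 9 genes called in the *Pax3* line, the genes nearest to it in log2 CPM relative to the wild types of each line, over 12 libraries and 14841 genes, were listed by root mean square difference as a description with no test. Nearest to *Prdm12* were *Klhl41* (0.074), a gene of skeletal muscle, and *Thsd7b* (0.087), beside a median over all genes of 0.53. Nearest to *Pou4f1* were *Igfbp3* (0.067) and *Isl1* (0.080), a LIM homeodomain gene that is itself on the list of sensory neuron factors, beside a median of 0.28. *Ret* was nearest to *Masp1* (0.098) and *Egfr* (0.11), with a median of 0.32. *Runx1* was nearest to *Pcdhga4* (0.086) and *Mme* (0.087), with a median of 0.30, and *Runx3* to *Pcdhgb1* (0.19) and *Pik3cg* (0.19), with a median of 0.42. Variants of the gamma protocadherin cluster share their constant exons, so counts of *Pcdhga4* and *Pcdhgb1* are uncertain. The libraries share their wild types within a line, and likeness of level across whole embryos does not place 2 genes in the same cells.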
